A study of Penicillium oxalicum with 18 samples.

Results

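A group of 102 genes of the filamentous fungus Penicillium oxalicum is described here that stood low in cellulose medium both without the F-box gene fbx23 and after it had been put back. They were chosen out of 9230 genes by their transcription level in the cellulose medium VMMC. Members averaged 5 FPKM or more in the WT, FPKM being a read number scaled to transcript length and to the size of the library. On the scale of log2(FPKM + 1), the means of both Δfbx23 and Refbx23 were at least 2 below that of the WT. Of 7008 genes at 5 FPKM or more in the WT, 161 met the limit in Δfbx23 and 133 in Refbx23. The cellulase-family gene PDE_05445 met both limits and was left out by the same rule. Because these VMMC values chose the members, the differences in VMMC are a description and were not tested.

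The series holds 18 libraries in 6 groups of 3. Δfbx23 is strain 114-2 with fbx23 replaced by the hygromycin resistance marker hph. Refbx23 was made by transforming Δfbx23 with fbx23 under its own upstream region, joined to the pyrithiamine resistance marker ptrA. Its listed genotype names the deletion and hph as well. The Southern blot band that the paper expects for Refbx23 differs from that of Δfbx23, so whether both remain is not settled here. The WT is the parent 114-2, and no strain is described as more than 1 transformant. Δfbx23 and Refbx23 are together called the mutant strains. Each strain was grown in VMMC or in VMMG, after 24 h of preculture on glucose. VMMG held 2% glucose. For the cellulose medium the labels give 1% bran with 1% microcrystalline cellulose, and for both media 18 h of growth in a modified Mendal's medium. The methods differ in the cellulose source, the time and the basal medium, which they name as Vogel's. The WT and Δfbx23 libraries are described as biological triplicates. For Refbx23 the sources used here do not say whether libraries came from separate cultures, so its p-values measure only the spread between these libraries, which may be technical.

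F-box proteins are the substrate-binding subunits of SCF ubiquitin ligases, which tag selected proteins for breakdown by the proteasome. Fungi that live on plant cell walls keep the genes for extracellular glycoside hydrolases, sugar transporters and the enzymes of sugar use largely silent while glucose is plentiful. On cellulose or bran these genes are switched on, and the released oligosaccharides are taken up by membrane transporters of the major facilitator superfamily. The comparison of deletion, complemented strain and WT asks which transcription levels depend on fbx23.

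As a check of the labels, no Δfbx23 library listed a value above 0 for fbx23 (PDE_08467). In VMMC this gene had 58.5, 67.02 and 56.9 FPKM in the Refbx23 libraries and 58.9, 66.8 and 60.2 FPKM in the WT libraries, so the groups overlapped. FPKM sums ran from 781397 to 954142 per library, between 8385 and 8648 genes were above 0, and the Pearson correlation between replicate libraries over all genes, which are not independent, was 0.9704 to 0.9945 for log2(FPKM + 1). No read counts were given, so the depth is unknown and no counting limit could be set for a value listed at 0. The 6 conidial pigment genes, which mark spore formation, summed to 2716 to 3319 FPKM in Δfbx23, 2511 to 2707 FPKM in Refbx23 and 2841 to 3260 FPKM in WT libraries in VMMC. None of the 6 was called changed between either strain and the WT in VMMC.

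The 102 genes ran from 5.24 to 6535 FPKM in the WT in VMMC, with a median of 53.5 FPKM, and 40 of them reached 100 FPKM. Their levels in Δfbx23 were 0 to 26.4% of the WT mean, with a median of 7.51%. In Refbx23 they were 0 to 24.0%, with a median of 11.4%. Both strains were under 10% of the WT for 40 members. Summed over the members, the FPKM came to 2246 to 3299 per library in Δfbx23, 2807 to 3134 in Refbx23 and 26632 to 30574 in the WT. This was at most 0.385% of a Δfbx23 library and 0.375% of a Refbx23 library, but 3.25 to 3.91% of a WT library. Every Δfbx23 library was below every WT library for 97 members, where 33.1% of all 8006 genes tested were placed so. Every Refbx23 library was below every WT library for 96 members, against 34.1% of all 8012 genes tested. The exceptions were PDE_00553, PDE_02378, PDE_02828, PDE_06195 and PDE_09123, each listed at 0 in at least 1 WT library, and for Refbx23 also PDE_08050. In such bulk cultures, fewer cells of a type and less RNA per cell cannot be told apart. The heat map of all members shows the 3 WT libraries in VMMC as the bright columns.

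**Figure D1:**
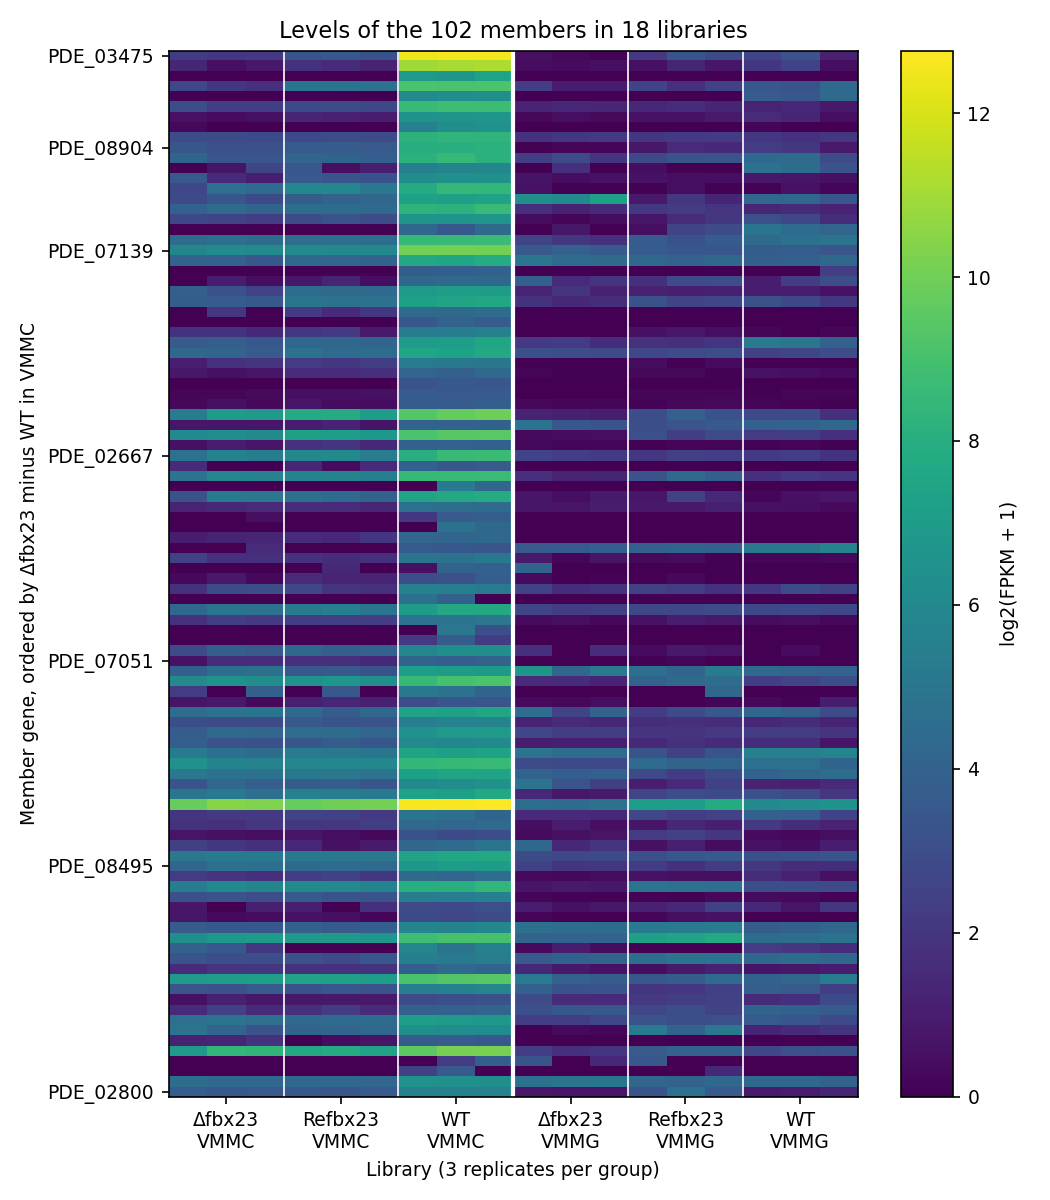
Levels of the 102 members (rows, ordered by Δfbx23 minus WT in VMMC) in 18 libraries (columns, 3 per group), as log2(FPKM + 1) from dark (0) to bright. Summed over the members, each WT library in VMMC held at least 26632 FPKM, and each mutant library in VMMC at most 3299 FPKM.

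PDE_03475, the only member listed under carbohydrate transport, had 3.74, 3.2 and 3.51 FPKM in the Δfbx23 libraries, 8.91, 10.4 and 8.29 FPKM in the Refbx23 libraries and 5521, 6024 and 5935 FPKM in the WT libraries in VMMC. The groups were far apart, and the 3 Refbx23 libraries lay above the 3 Δfbx23 libraries. The differences from the WT were -10.34 in Δfbx23 and -9.16 in Refbx23 on the log2(FPKM + 1) scale. PDE_03478, 3 loci away, had 0.55, 0.29 and 0.48 FPKM in Δfbx23, 1.52, 1.25 and 0.96 FPKM in Refbx23 and 91.9, 97.5 and 98.1 FPKM in the WT. Again every Refbx23 library was above every Δfbx23 library, and both groups were at most 1.30% of the WT on average.

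PDE_06899, which has no annotation in the sources used here, had 1.56, 0.43 and 0.81 FPKM in Δfbx23, 2.47, 1.96 and 1.43 FPKM in Refbx23 and 1994, 2158 and 2334 FPKM in the WT in VMMC. Its differences from the WT were -10.17 in Δfbx23 and -9.53 in Refbx23. With PDE_03475 it stood apart from the other members: the next lowest differences in Δfbx23, among members not listed at 0 there, were -6.96 for PDE_00845 and -6.13 for PDE_04352. The unannotated gene PDE_04352 had 7.46, 4.18 and 4.18 FPKM in Δfbx23, 6.14, 6.49 and 5.7 FPKM in Refbx23 and 405, 439.7 and 434 FPKM in the WT, and the groups of the mutant strains overlapped. PDE_05036 was at 0.0800 FPKM in Δfbx23, 0 in Refbx23 and 72.1 ± 20.6 FPKM (SD, n = 3) in the WT. PDE_02146, listed under hydrolase activity, was at 6.54 ± 0.373 FPKM in Δfbx23, 6.41 ± 0.399 FPKM in Refbx23 and 316 ± 17.4 FPKM in the WT (SD, n = 3 each).

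For 12 members all 6 libraries of the mutant strains in VMMC were listed at 0. Of these, 9 were listed at 0 in all 12 mutant libraries of both media: PDE_00553, PDE_00836, PDE_01522, PDE_01836, PDE_03608, PDE_06161, PDE_08226, PDE_08440 and PDE_09123. PDE_08440 had 116, 107 and 168 FPKM in the WT libraries in VMMC and was listed at 0 in the other 15 libraries, WT in VMMG included. The loci on either side of it were transcribed, PDE_08439 at 16.5 FPKM in Δfbx23, 18.5 FPKM in Refbx23 and 46.9 FPKM in the WT, and PDE_08441 at 13.8, 13.3 and 22.2 FPKM in the same strains.

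PDE_00836 was listed at 0 in all Δfbx23 and Refbx23 libraries, and was at 68.7, 79.4 and 80.5 FPKM in VMMC and 11.9, 9.97 and 20.6 FPKM in VMMG in the WT. It was the one of the 9 with a level above 0 in every WT library of both media. PDE_01522 was at 12.7, 12.9 and 14.5 FPKM in the WT in VMMC and above 0 in 1 WT library in VMMG, and the other 7 were at 0 in VMMG in every strain. PDE_08226, listed under carbohydrate binding, had 8.94, 10.5 and 10.1 FPKM in the WT in VMMC. Some of these WT levels were uneven: PDE_01836 had 0.01, 32.8 and 7.65 FPKM, PDE_09123 0, 39.1 and 17.2 FPKM and PDE_00553 0, 26.8 and 18.02 FPKM. The remaining 3 of the 12 were not at 0 throughout. PDE_00306 had 0, 0.75 and 0 FPKM in Δfbx23, 0.39, 5.09 and 6.87 FPKM in Refbx23 and 29.5, 21.1 and 17.2 FPKM in the WT in VMMG. PDE_02378 had 8.96, 0 and 1.77 FPKM in Δfbx23, 10.04, 0 and 0 FPKM in Refbx23 and 0 in the WT libraries in VMMG. PDE_06195 was above 0 in VMMG in 1 library, of Refbx23, at 1.81 FPKM. Where a group is listed at 0, a difference on the log2(FPKM + 1) scale depends on the added 1 and sets no bound on the fold.

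At the other end of the range, the most abundant member kept a high level. PDE_06715, without annotation here, had 892, 1413 and 1256 FPKM in Δfbx23, 848, 1024 and 1094 FPKM in Refbx23 and 6306, 6363 and 6935 FPKM in the WT in VMMC. The mutant strains overlapped, and both were far below the WT, with differences of -2.48 and -2.73. Other members above 1000 FPKM in the WT were PDE_03475, PDE_06899, the monooxygenase gene PDE_07139 and PDE_08139. PDE_07139 averaged 63.6 ± 7.27 FPKM in Δfbx23, 65.4 ± 3.53 FPKM in Refbx23 and 1056 ± 30.6 FPKM in the WT (SD, n = 3 each). PDE_08880 and PDE_08316, both unannotated, averaged 69.6 and 133 FPKM in Δfbx23, 133 and 153 FPKM in Refbx23, and 664 and 637 FPKM in the WT.

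**Figure D2:**
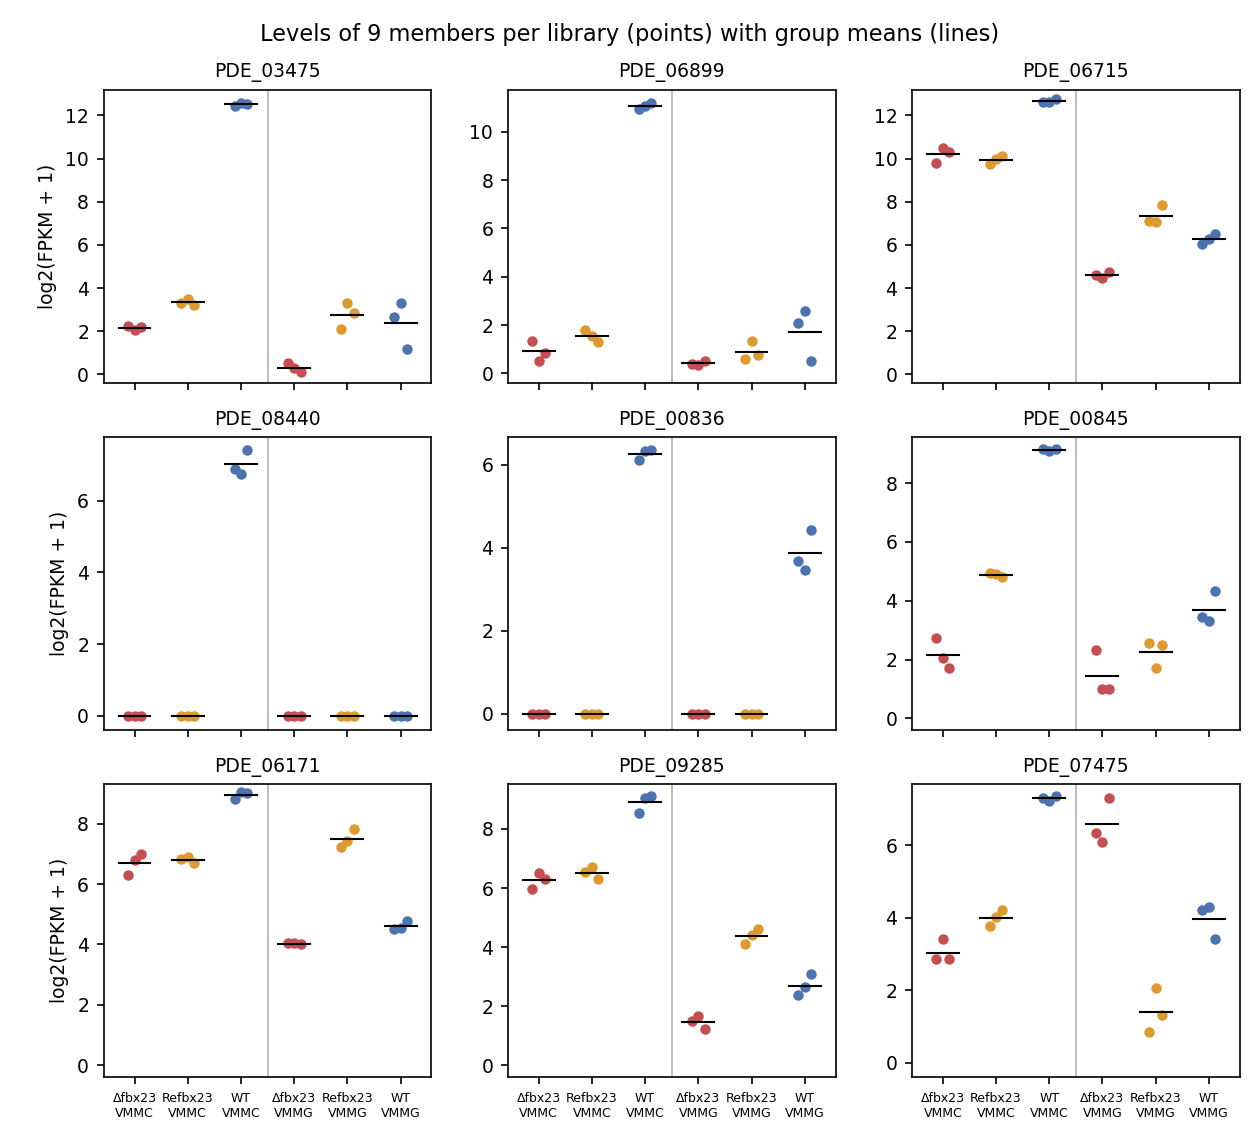
Levels of 9 members in each library (points) with the group means (lines), as log2(FPKM + 1), for Δfbx23, Refbx23 and WT in VMMC (left of the grey line) and VMMG (right of it). PDE_08440 is above 0 only in the 3 WT libraries in VMMC, and PDE_07475 in VMMG is high in Δfbx23 (101 FPKM) and low in Refbx23 (1.83 FPKM).

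Functions could be named for few members: 30 were listed under a GO (Gene Ontology) term, 4 lay in secondary metabolism clusters, 4 had a protein description and 67 had none of these. The GO lists are those of terms that the study tested on these samples, and a gene may carry terms that were not listed. Genes for enzymes that split glycosidic bonds made up 6 members, between 48.2 and 1015 FPKM in the WT in VMMC. PDE_08139, listed under polygalacturonase activity and described as a glucan 1,3-beta-glucosidase, had 119, 354 and 330.3 FPKM in Δfbx23, 205, 231 and 163 FPKM in Refbx23 and 749, 1136 and 1159 FPKM in the WT. PDE_09285, also under polygalacturonase activity, the cleavage of pectin's galacturonic acid backbone, had 62.4, 89.7 and 77.7 FPKM in Δfbx23, 92.03, 104 and 77.98 FPKM in Refbx23 and 376, 525 and 556 FPKM in the WT. The Δfbx23 and Refbx23 libraries overlapped for both genes and were below every WT library. The others were PDE_05515 (-3.26 in Δfbx23 and -2.09 in Refbx23), PDE_06621 (-4.29 and -2.58) and the neighbouring pair PDE_02800 (-2.005 and -2.09) and PDE_02801 (-3.17 and -2.97). PDE_02862, under cell wall organization and polysaccharide catabolism, averaged 24.8 FPKM in Δfbx23, 37.3 FPKM in Refbx23 and 180.4 FPKM in the WT. PDE_00051, listed under carbohydrate catabolic process, differed by -3.16 in Δfbx23 and -3.07 in Refbx23.

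Oxygenases, which insert oxygen from O2 into their substrates, made up a further 8 members. The 5 dioxygenase genes were PDE_08904 (-4.84 in Δfbx23 and -4.43 in Refbx23), PDE_05907 (-3.53 and -3.01), PDE_00320 (-2.63 and -2.06), PDE_04527 (-2.62 and -3.28) and PDE_04457 (-2.51 and -2.36). The 3 monooxygenase genes were PDE_07139 (-4.04 and -3.99), PDE_03365 (-2.44 and -2.48) and PDE_04228 (-2.35 and -2.05), the last pair also listed under heme binding and mycotoxin biosynthesis. PDE_08904, the highest of the dioxygenase genes in the WT, had 9.62, 7.79 and 7.67 FPKM in Δfbx23, 11.4, 12.1 and 10.7 FPKM in Refbx23 and 250.4, 261 and 285 FPKM in the WT. On average it stood at 3.15% of the WT in Δfbx23 and at 4.29% in Refbx23.

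Beside PDE_03475, the transport genes were the amino acid transport genes PDE_00845 and PDE_01350 and the metal ion transport genes PDE_03497 and PDE_05150. PDE_00845 had 5.67, 3.16 and 2.28 FPKM in Δfbx23, 29.8, 29.03 and 26.7 FPKM in Refbx23 and 571, 539 and 565 FPKM in the WT in VMMC. The 3 strains did not overlap, and Refbx23 lay between Δfbx23 and the WT. PDE_01350 differed by -2.28 in Δfbx23 and -2.06 in Refbx23, PDE_03497 by -3.38 and -3.21, and PDE_05150 by -2.48 and -2.15.

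PDE_06171 is described as an NAD-specific glutamate dehydrogenase, an enzyme that releases ammonium from glutamate. It had 77.7, 109.7 and 126 FPKM in Δfbx23, 113, 117 and 103 FPKM in Refbx23 and 447, 532 and 523 FPKM in the WT in VMMC. Both mutant strains overlapped here and lay below the WT. PDE_00516, described as a phosphatidylinositide phosphatase, and PDE_08753, described as the nuclear fusion protein KAR5, were low genes at 0.137 and 0.177 FPKM in Δfbx23, 0 and 0.457 FPKM in Refbx23, and 9.46 and 11.6 FPKM in the WT. The secondary metabolism members were PDE_04265 of cluster 16 (-4.06 in Δfbx23 and -4.03 in Refbx23), PDE_06210 of cluster 19 (-2.44 and -3.56), PDE_07169 of cluster 22 (-2.41 and -2.11) and PDE_10000 of cluster 28 (-2.27 in Δfbx23, and listed at 0 in Refbx23). PDE_10000 and the members PDE_02393 and PDE_07956 were listed under binding of flavin adenine dinucleotide, the redox cofactor FAD. PDE_08329, listed under secondary metabolite biosynthesis but in no cluster, differed by -2.21 in Δfbx23 and -2.19 in Refbx23. PDE_08908, listed only under catalytic activity, differed by -3.70 and -3.68.

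Over the whole lists, members included, genes of these categories showed mixed differences in VMMC. These were read with limma over all genes at a 2-fold change and a Benjamini-Hochberg adjusted p under 0.05. Among all genes tested, 8.34% were lower and 6.05% higher in Δfbx23, and 7.09% lower and 5.63% higher in Refbx23. Of the carbohydrate transport list, 41 of 46 genes were tested, of which 15 were lower and 4 higher in Δfbx23, and 5 were lower and 3 higher in Refbx23. Amino acid transport genes numbered 8 lower and 4 higher of 26 tested in Δfbx23, and 5 lower and 5 higher of 27 in Refbx23. Of 23 tested genes for oxygenases acting on single donors, 7 were lower and 1 higher in Δfbx23, and 5 were lower and 2 higher in Refbx23. Polygalacturonase genes were lower for 5 and higher for 4 of 15 in Δfbx23, and lower for 6 and higher for 1 in Refbx23. Genes of the secondary metabolism clusters went more often the other way, with 19 lower and 58 higher of 230 tested in Δfbx23, and 17 lower and 58 higher of 229 in Refbx23. These lists include the members named above, whose fall the rule fixed, and the lists were chosen on these samples, so the counts are no independent evidence. The cellulase list held no member once PDE_05445 was left out, with 1 of its 13 genes lower and 9 higher in Δfbx23, and 3 of 12 tested lower and 0 higher in Refbx23. PDE_05445 is in the lower counts of both strains. Median differences over the genes tested were -0.57 in Δfbx23 and -0.42 in Refbx23 for carbohydrate transport, 0.27 and 0.26 for the secondary metabolism clusters, and 1.55 and -0.74 for the cellulase genes, where all genes stood at -0.03 and -0.01.

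Between Refbx23 and Δfbx23 in VMMC, 91 of 102 members (89.2%) were within 2-fold of each other, where 96.6% of all 8006 genes tested were. At least 2-fold higher in Refbx23 were 8 members, against 1.55% of these genes, and at least 2-fold lower were 3, against 1.87%. The rule placed both strains below the WT, so these shares are a description. In 12 members both strains were at 0, so these count as within 2-fold and not as higher. Refbx23 had the higher mean for 61.8% of the members, where this held for 57.1% of all 8006 genes tested, and the median difference was 0.19 against 0.03 over all genes. The largest was that of the amino acid transport gene PDE_00845, 2.71, which left it at 5.10% of the WT in Refbx23 and 0.663% in Δfbx23. PDE_06621, a glycosyl hydrolase gene, followed with 1.71, having 61.2, 61.3 and 33.5 FPKM in Refbx23, 5.82, 24.4 and 20.9 FPKM in Δfbx23 and 229.6, 356 and 346 FPKM in the WT. Its libraries did not overlap between strains. PDE_05653, PDE_09583 and PDE_01265 were higher by 1.35, 1.26 and 1.20 in Refbx23. The libraries of both strains overlapped for PDE_05653 and PDE_09583, and not for PDE_01265. PDE_05653 had 10.8, 1.83 and 1.05 FPKM in Δfbx23, and PDE_09583 had 0, 3.04 and 0 FPKM there.

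In the other direction PDE_10000, of secondary metabolism cluster 28, was listed at 0 in all Refbx23 libraries, and had 14.1, 10.3 and 3.13 FPKM in Δfbx23 and 54.8, 29.1 and 45.9 FPKM in the WT in VMMC. It was thus detected in the deletion strain and not in the strain made from it. PDE_06210 of cluster 19 was at 1.64, 0.49 and 0.87 FPKM in Refbx23, 4.41, 3.21 and 2.32 FPKM in Δfbx23 and 17.2, 20.7 and 29.4 FPKM in the WT. PDE_03656, PDE_00572 and PDE_00273 had differences between Refbx23 and Δfbx23 of -1.09, -0.96 and -0.89. The strains overlapped for PDE_00273, with 3.81, 0 and 13.45 FPKM in Δfbx23 and 0, 10.02 and 0 FPKM in Refbx23. For 12 members the 2 strains had equal means, all of them at 0. The excluded PDE_05445 was at 32.2, 23.4 and 22.9 FPKM in Δfbx23, 3.32, 3.51 and 3.11 FPKM in Refbx23 and 112, 122 and 111 FPKM in the WT, lowest in the complemented strain.

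The members were nearly all genes of the cellulose medium in the WT, a property that the rule did not ask for beyond a level in VMMC. In the WT, 98 of 102 were at least 2-fold higher in VMMC than in VMMG, against 27.2% of the 7008 genes at 5 FPKM or more in the WT in VMMC, and the median difference was 3.94 against 0.17. The WT libraries in VMMC are those that chose the members, so this too is a description. At least 2-fold lower in VMMC was 1 member, against 13.3%. This was PDE_01299, at 10.4 FPKM in VMMC and 39.3 FPKM in VMMG in the WT, while PDE_00306, PDE_05041 and PDE_08419 were within 2-fold. The largest difference was that of PDE_03475, at 10.13.

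In the mutant strains the difference between media was smaller for most members. The rule set the mutant VMMC means at least 2 below the WT, so much of this was fixed in advance and is a description. In Δfbx23, 49 members were at least 2-fold higher in VMMC, against 21.3% of the same 7008 genes, and 10 at least 2-fold lower, against 9.59%. In Refbx23, 55 members were at least 2-fold higher, against 14.1%, and 10 at least 2-fold lower, against 5.71%. The median differences were 0.92 in Δfbx23 and 1.12 in Refbx23. Of the 98 genes that were higher on cellulose in the WT, 41 were at least 2-fold higher in both mutant strains and 35 in neither. PDE_08139 was among the first, with differences of 5.93 in Δfbx23, 3.77 in Refbx23 and 6.96 in the WT. PDE_06899 was among the second, with 0.48 in Δfbx23, 0.65 in Refbx23 and 9.36 in the WT. For PDE_03475 they were 1.85, 0.59 and 10.13 in the same strains. PDE_07475, listed under extracellular region, went opposite ways, with -3.54 in Δfbx23, 2.59 in Refbx23 and 3.32 in the WT.

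**Figure D3:**
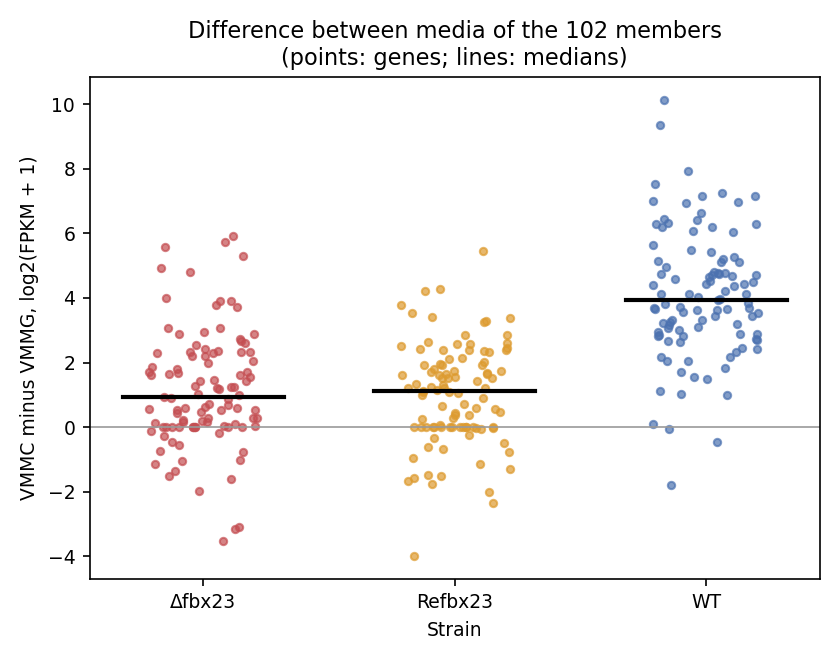
VMMC minus VMMG on the log2(FPKM + 1) scale for each of the 102 members (points) in Δfbx23, Refbx23 and WT, with the median as a line. The medians are 0.92, 1.12 and 3.94, and points below 0 are members lower on cellulose. The rule set the mutant VMMC means below the WT, which by itself lowers the differences of the mutant strains.

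The glucose libraries did not enter the rule, so the strain differences in VMMG could be tested. Many members were near 0 there: 20 were listed at 0 in all WT libraries in VMMG, and 13 in all 9 VMMG libraries. Between Δfbx23 and WT, 62 of the 102 passed the mean of 1 FPKM over the 6 libraries compared, of which 23 were lower in Δfbx23, where 7% of all 7691 genes tested were lower, and 2 were higher, where 4.77% were. The median difference of the 62 was -0.52, where that of all genes tested was -0.07. A member near 0 in 1 strain passed this filter only through the other, so neither the count nor this median speaks for all members. Over all 102, of which 40 were under the filter, the median was -0.07. The count of 23 varied with the libraries used, and was 13 without Δfbx23 VMMG replicate 3 and 14 without WT VMMG replicate 2. The pigment genes summed to 44.7 to 66.0 FPKM in Δfbx23, 3707 to 4481 FPKM in Refbx23 and 477 to 1074 FPKM in WT libraries in VMMG. They were called lower for 5 of 6 in Δfbx23, and higher for 6 of 6 in Refbx23. Their part in the members' glucose differences was not tested.

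PDE_00306 had the lowest difference of Δfbx23 from the WT in VMMG, -4.26 (SE 0.30, limma adjusted p = 0.000452), from the library values given above, which did not overlap. PDE_00836, listed at 0 in Δfbx23, was called lower on the log2(FPKM + 1) scale with an adjusted p of 0.000434 in limma. PDE_02274, without annotation, had 0, 2.39 and 0 FPKM in Δfbx23 and 27.1, 21.6 and 8.76 FPKM in the WT, a difference of -3.61 (SE 0.60, limma adjusted p = 0.00833). All of its Δfbx23 libraries were below the WT. The dioxygenase gene PDE_05907 had 3.35, 3.78 and 2.2 FPKM in Δfbx23 and 39.05, 31.2 and 14.4 FPKM in the WT, a difference of -2.74 (SE 0.37, limma adjusted p = 0.00372). PDE_04265 of cluster 16 had 5.07, 3.19 and 2.39 FPKM in Δfbx23 and 20.5, 26.98 and 28.8 FPKM in the WT, a difference of -2.57 (SE 0.24, limma adjusted p = 0.00114). For these genes the deletion strain was lower on both carbon sources. Of them, PDE_00306, PDE_00836 and PDE_02274 averaged under 1 FPKM in Δfbx23 and passed the filter only through the WT. Their p-values therefore add no support to the library values. The transporter gene PDE_03475 had 0.42, 0.23 and 0.09 FPKM in Δfbx23 and 5.37, 8.75 and 1.26 FPKM in the WT in VMMG, a difference of -2.07 (SE 0.52, limma adjusted p = 0.0331). This gene too averaged under 1 FPKM in Δfbx23 and passed the filter only through the WT. Its call lay near the threshold. It was lost without Δfbx23 VMMG replicate 1, 2 or 3 (adjusted p in limma of 0.0718, 0.0892 and 0.107), without WT VMMG replicate 1 or 2 (0.0975 and 0.0872), and with no filter on low values (0.0630). In these fits the difference stayed between -2.17 and -1.61.

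The members higher in Δfbx23 in VMMG were PDE_07475 and PDE_02652. PDE_07475 had 80.5, 67.2 and 156 FPKM in Δfbx23 and 17.6, 18.5 and 9.71 FPKM in the WT, a difference of 2.60 (SE 0.37, limma adjusted p = 0.00456), opposite to its -4.26 in VMMC. PDE_02652, without annotation, had 28.3, 8.74 and 4.41 FPKM in Δfbx23 and 1.38, 1.24 and 1.99 FPKM in the WT, a difference of 2.20 (SE 0.59, limma adjusted p = 0.0388). Its call was lost under 6 of the alternatives, with adjusted p from 0.0511 to 0.119. They included leaving out Δfbx23 VMMG replicate 2 (0.0862) or WT VMMG replicate 1, 2 or 3 (0.1001, 0.119 and 0.0511).

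Between Refbx23 and WT in VMMG, 63 members were tested, of which 13 were lower in Refbx23, against 6.8% of all 7795 genes tested, and 9 were higher, against 11.5%. Here too a member near 0 in 1 strain passed the filter only through the other, so these counts do not speak for all members. Over all 102 the median difference was 0.005, where that of all genes tested was 0.007. The lowest differences were -4.04 for PDE_02274, -2.92 for PDE_05907, -2.64 for PDE_02595 and -2.56 for PDE_07475, beside PDE_00836, which was at 0 in Refbx23. PDE_02274 had 0.4, 0 and 0 FPKM in Refbx23, and PDE_05907 had 2.55, 2.27 and 2.94 FPKM, so both were below the WT libraries in either mutant strain. Compared directly with Δfbx23, Refbx23 differed by -0.18 (SE 0.19, limma adjusted p = 0.437) for PDE_05907, which was not called. PDE_02274 fell under the 1 FPKM filter in that comparison and was not tested.

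The members higher in Refbx23 than in the WT on glucose were led by PDE_01114, PDE_06171 and PDE_02800. PDE_06171, the glutamate dehydrogenase gene, had 149, 172 and 223 FPKM in Refbx23 and 21.7, 22.4 and 26.1 FPKM in the WT in VMMG, a difference of 2.88 (SE 0.16, limma adjusted p = 0.000152). PDE_01114, without annotation, had 37.95, 15.5 and 33.8 FPKM in Refbx23 and 1.34, 1.95 and 2.98 FPKM in the WT, a difference of 3.22 (SE 0.36, limma adjusted p = 0.000966). No Refbx23 library of either gene reached down to a WT library. The adjacent glycosyl hydrolase genes PDE_02800 and PDE_02801 differed by 2.79 (SE 0.34, limma adjusted p = 0.0013) and 1.86 (SE 0.28, limma adjusted p = 0.00275). PDE_04614 was at 3.79 FPKM in Refbx23 and 0.297 FPKM in the WT, a difference of 1.87.

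Between Refbx23 and Δfbx23 in VMMG, 61 members were tested, of which 17 were higher in Refbx23, against 13.4% of all 7782 genes tested, and 5 were lower, against 8.42%. Some of these members passed the filter only through the strain where they were high, so the counts do not speak for all members. The median difference over all 102 was 0.07, where that of all genes tested was 0.06. PDE_01114 had 37.95, 15.5 and 33.8 FPKM in Refbx23 and 0, 0.26 and 0.17 FPKM in Δfbx23, a difference of 4.63 (SE 0.33, limma adjusted p = 6.48e-05). PDE_02990, without annotation, had 28.6, 26.4 and 24.1 FPKM in Refbx23 and 0.67, 0.89 and 0.74 FPKM in Δfbx23, a difference of 3.95 (SE 0.12, limma adjusted p = 2.04e-06). Both genes averaged under 1 FPKM in Δfbx23 and passed the filter only through Refbx23. Their p-values therefore add no support to the library values. In VMMC both strains were within 2-fold of each other for these genes, where Refbx23 minus Δfbx23 was 0.11 for PDE_01114 and 0.22 for PDE_02990. The same comparison in VMMG gave 3.46 for PDE_06171, 3.13 for PDE_02800 and 2.93 for PDE_09285, all called. PDE_02800 also passed the filter only through Refbx23.

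PDE_07475 had the lowest difference, -5.17 (SE 0.40, limma adjusted p = 9.46e-05), with 0.81, 3.19 and 1.48 FPKM in Refbx23 and 80.5, 67.2 and 156 FPKM in Δfbx23. The others that were lower in Refbx23 without overlap were PDE_02595 (-1.59), PDE_00923 (-1.39) and the dioxygenase gene PDE_04457 (-1.29). The plot of both strain differences on glucose places PDE_07475 alone at the lower right.

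**Figure D4:**
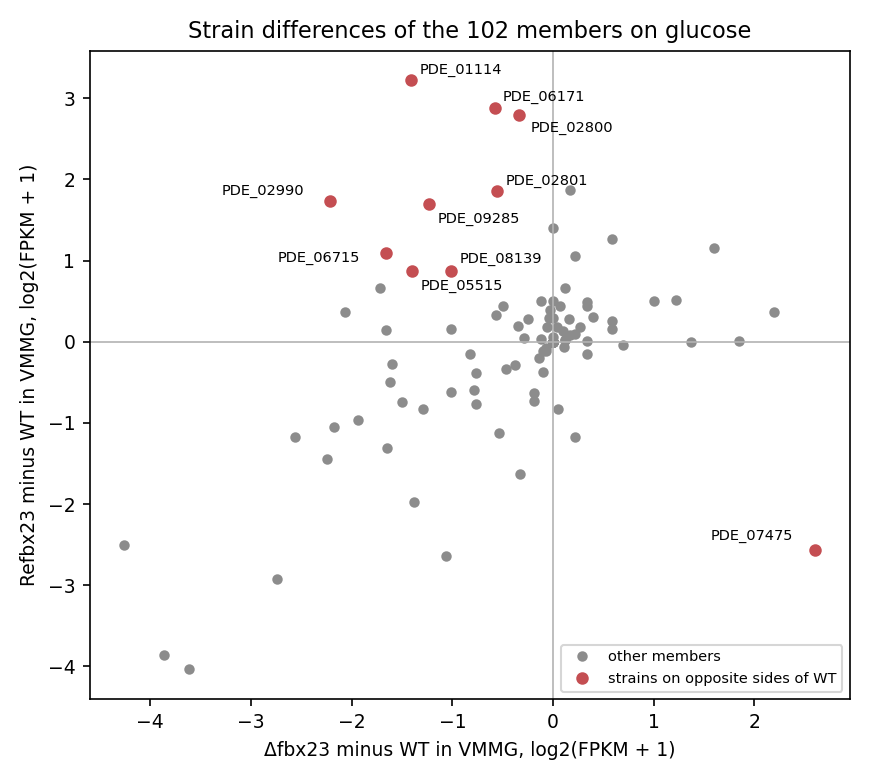
Δfbx23 minus WT (horizontal) against Refbx23 minus WT (vertical) in VMMG on the log2(FPKM + 1) scale, 1 point per member. Both differences use the same WT libraries. The 10 named members (red) have Δfbx23 and Refbx23 on opposite sides of the WT, PDE_07475 with 2.60 and -2.56.

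Some members were neighbours by locus number, which was taken to follow gene order, since no coordinates of this genome were at hand. A further member lay within 2 loci for 13 members (12.7%), and a member lay within 2 loci of 3.74% of the 6899 other genes at 5 FPKM or more in the WT in VMMC. The neighbours were PDE_01265 with PDE_01267, PDE_02667 with PDE_02668, PDE_02800 with PDE_02801, PDE_06621 with PDE_06622, PDE_08904 with PDE_08905, and the run PDE_09283, PDE_09284 and PDE_09285. The run differed by -2.26, -2.60 and -2.64 in Δfbx23 and by -2.18, -2.50 and -2.39 in Refbx23, while PDE_09282 before it was at 0.15 and 0.22. On the glucose side they parted, with PDE_09283 at 19.5 FPKM, PDE_09284 at 1.58 FPKM and PDE_09285 at 5.62 FPKM in the WT in VMMG.

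From PDE_08904 to PDE_08909 all 6 loci were lower in both strains in VMMC, 3 of them members. The differences in Δfbx23 were -4.84, -4.08, -1.79, -1.90, -3.70 and -1.30 in locus order, and in Refbx23 -4.43, -3.56, -1.66, -1.79, -3.68 and -1.33. The loci on either side, PDE_08903 and PDE_08910, differed by -0.16 and 0.14 in Δfbx23. Between the members PDE_03475 and PDE_03478, PDE_03477 was at 0.10 FPKM in Δfbx23, 0.127 FPKM in Refbx23 and 4.33 FPKM in the WT, just under the level that the rule asks for. Beside PDE_04265, PDE_04264 was at 81.2 FPKM in Δfbx23, 122 FPKM in Refbx23 and 307 FPKM in the WT, and PDE_04266 at 174, 198 and 560.5 FPKM in the same strains.

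Most neighbouring genes were not 2-fold lower in both strains. Of 151 adjacent loci that were no members and had at least 1 FPKM in the WT in VMMC, 23 (15.2%) were at least 2-fold lower in both mutant strains, against 4.79% of 7873 other genes. The median difference of these adjacent loci was -0.26 in Δfbx23 and -0.14 in Refbx23. These counts have no test, and the runs named were chosen after their values were seen.

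**Figure D5:**
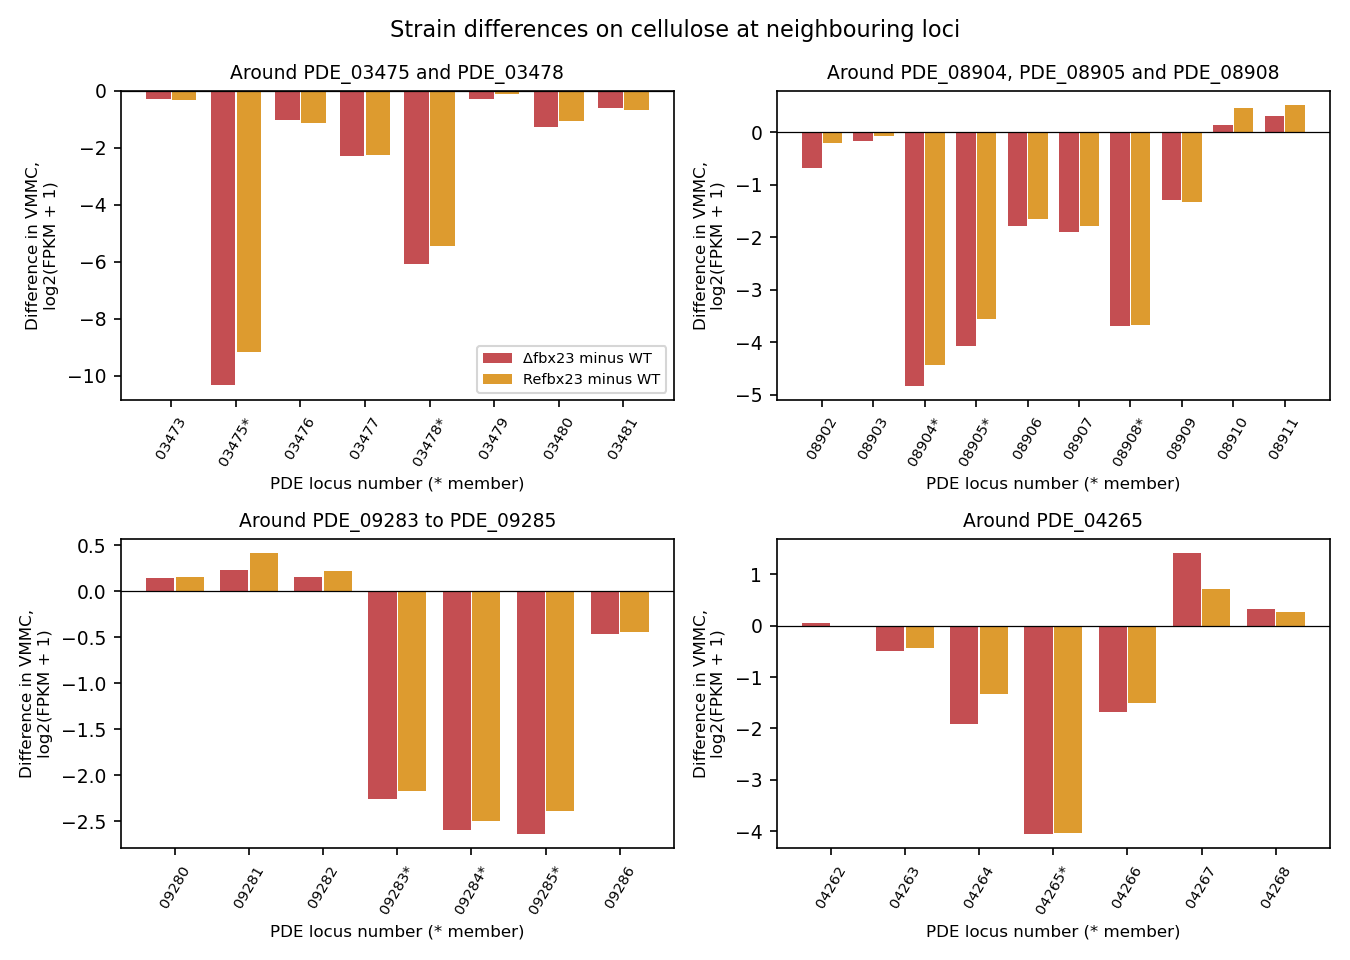
Δfbx23 minus WT and Refbx23 minus WT in VMMC on the log2(FPKM + 1) scale at neighbouring loci with at least 1 FPKM in the WT in VMMC (members marked with *). The bars of PDE_08904 to PDE_08909 all point down, from -4.84 to -1.30 in Δfbx23, and PDE_08903 and PDE_08910 on either side are at -0.16 and 0.14.

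Close to the limits of the rule, PDE_02800 (-2.005), PDE_02393 (-2.03) and PDE_06195 (-2.04) were just inside for Δfbx23 minus WT, and PDE_01954 (-1.997), PDE_08491 (-1.90) and PDE_02932 (-1.86) just outside. For Refbx23 minus WT, PDE_02706 (-2.01), PDE_06411 (-2.02) and PDE_06011 (-2.03) were inside, and PDE_05925 (-1.99), PDE_09325 (-1.98) and PDE_09563 (-1.98) outside. For the level in the WT, PDE_06195 (5.24 FPKM), PDE_02378 (5.81 FPKM) and PDE_09011 (6.08 FPKM) were inside, and PDE_03056 (4.56 FPKM) and PDE_03477 (4.33 FPKM) outside.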

How the data were processed

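Per the labels and methods, mycelia were sequenced in 18 libraries. The reads were mapped to the genome of this fungus by the authors, who deposited FPKM per gene with 2 decimals, without pooled columns. The aligner and genome build are not given in the sources used here. The labels describe a tag-based library protocol and the methods RNA-Seq, which bears on whether FPKM was formed over whole transcripts. FPKM are relative within a library, so a few abundant genes shift the values of the others. Of the identifiers, 9210 are PDE loci and 20 are names from the sequencing provider. The reference gene table at hand is of another strain and matched 0 members, so coordinates, sequences and gene lengths were not used.

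Relative depth, estimated from the steps of low values over 43 to 59 genes per library, was 0.972 to 1.05 and cannot show large differences. Strains were compared in VMMG with limma (version 3.58.1, under R 4.3.3), using log2(FPKM + 1) values and an intensity trend. Genes entered a fit when the 6 libraries averaged 1 FPKM or more. Calls needed a 2-fold change and a Benjamini-Hochberg adjusted p under 0.05. Fold changes on this scale understate those of low genes. VMMC fits served for all genes only. GO lists and clusters were read from the study's supplements, where 3 cluster ranges (7, 20 and 28) were read past a misprint. Python 3.11.15 with numpy 2.4.6 and pandas 2.3.3 gave the counts and medians, and matplotlib 3.10.9 the figures. The fits were checked on simulated data.

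The members, lists and tests were chosen with earlier results of these data known. Named genes were the 10 lowest in Δfbx23 and the 10 most abundant members, those at 0 in all mutant VMMC libraries, neighbours within 2 loci, annotated members, the 5 lowest and 5 highest called members without overlap in each VMMG comparison, those next to the limits, the 5 highest and 5 lowest for Refbx23 against Δfbx23 in VMMC, and loci beside a named member. PDE_08050, PDE_01299, PDE_05041, PDE_08419 and PDE_08910 outside these parts were named as exceptions or for their values, after these were seen. Alternatives were other pseudocounts, filters, scaling, a common fit, no trend, a replicate block, no fold threshold, other limits of the rule and leaving out each library.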

Additional observations from a re-analysis of the deposited data

Results flagged for a closer look

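In VMMG, 10 members had all Δfbx23 libraries on one side of the WT libraries and all Refbx23 libraries on the other, with a direct comparison of Refbx23 and Δfbx23 that was called in limma. The share of all genes with this pattern was not computed, so it is not shown to be particular to the members. Over all genes tested, 13.4% were called higher and 8.42% lower in Refbx23 than in Δfbx23. For 9 of the 10 members Refbx23 was above and Δfbx23 below the WT. PDE_01114, PDE_02990 and PDE_02800 passed the filter of the direct comparison only through Refbx23. Refbx23 minus Δfbx23 was 4.63 for PDE_01114, 3.95 for PDE_02990, 3.46 for the glutamate dehydrogenase gene PDE_06171, 3.13 for the glycosyl hydrolase gene PDE_02800, 2.93 for the polygalacturonase gene PDE_09285, 2.75 for PDE_06715, 2.41 and 2.27 for the glycosyl hydrolase genes PDE_02801 and PDE_05515, and 1.88 for PDE_08139. PDE_02800 fell under the 1 FPKM filter for Δfbx23 against WT and was not tested there, with 0.76, 0.63 and 0.63 FPKM in Δfbx23 and 0.91, 0.97 and 1.53 FPKM in the WT. PDE_07475 went the other way, with Refbx23 below and Δfbx23 above the WT and a difference of -5.17. The most abundant of them in the WT, PDE_06715, had 137, 134 and 232 FPKM in Refbx23, 23.1, 21.2 and 25.96 FPKM in Δfbx23 and 63.98, 75.6 and 89.4 FPKM in the WT. The summed pigment genes also had Δfbx23 below and Refbx23 above the WT in VMMG, as 44.7 to 66.0 FPKM in Δfbx23, 3707 to 4481 FPKM in Refbx23 and 477 to 1074 FPKM in the WT, and their part in these differences was not tested. In VMMC none of these 10 members separated the strains in this way, since the rule placed both below the WT.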

How the results depend on the processing

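The VMMG differences of named members were mostly chosen as extreme calls without overlap in these same libraries. Their stability was thus largely fixed in advance and does not speak for the other members. Of their values under the alternatives, 433 kept direction and call, 0 reversed and 12 lost the call. Those 12 were of PDE_02652 (6 values, log2 differences from 2.12 to 2.32, limma adjusted p from 0.0511 to 0.119) and PDE_03475 (6 values, from -2.17 to -1.61, adjusted p from 0.0630 to 0.107), both for Δfbx23 against WT. For Δfbx23 against WT, 23 members were lower, and 12 with the filter at 5 FPKM, where 33 instead of 62 members were tested. There were 2 higher, and 1 with no filter on low values, 4 with 1 fit over all 18 libraries, 1 with the replicate block and 4 with no threshold on the fold change. For Refbx23 against Δfbx23, 5 members were lower and 8 with no threshold on the fold change, and 17 were higher and 11 with the filter at 5 FPKM. Leaving out single libraries gave 13 to 24 lower and 1 to 2 higher members for Δfbx23 against WT, 11 to 18 and 8 to 11 for Refbx23 against WT, and 4 to 7 and 16 to 21 for Refbx23 against Δfbx23. The rule itself gave 33 genes with differences of at most -3, 122 with a pseudocount of 0.1 and 97 to 105 without single libraries. Members at least 2-fold higher in VMMC in the WT numbered 96 to 97 without single libraries, and those at 0 in all mutant libraries 9 to 11. Same-numbered replicates did not deviate together (correlations of -0.15, 0.26 and -0.02 for Δfbx23 and WT), so the numbers were not taken as pairs. With the replicate block 22 members were lower for Δfbx23 against WT, 12 lower and 9 higher for Refbx23 against WT, and 4 lower and 18 higher for Refbx23 against Δfbx23. The causes of the other changes were not tested.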
